A study of Mus musculus with 6 samples.

Results

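The nuclear genes for the proteins of the mitochondrial ribosome were followed in samples labelled as mouse pancreatic acinar cells, with and without floxed alleles of Setdb1. The members were the genes on the array whose probe accession belongs to a RefSeq symbol made of Mrpl (large subunit) or Mrps (small subunit) and a number. After 6 pseudogenes were dropped, the reference held 78 such genes. All 78 were on the array, among 23462 named genes, with 104 probes. All 78 passed the filter on dim probes, and 77 of them were well above background on all 6 arrays. The exception was Mrpl35, which passed through 1 group only and enters the counts and ranges but is not described by its level. The KC group (3 samples) carried Ptf1aCre, and the KCS group (3 samples) had the same background alleles plus Setdb1flox/flox. Both groups were labelled as isolated acinar cells on the C57BL/6 background. The Ptf1a promoter drove Cre in both, and the ages of the animals were not given in the sources used here. Setdb1 encodes a histone H3 lysine 9 methyltransferase, and the comparison asks how expression differs when its alleles are floxed in these samples. The labels do not say that the 3 samples of a group came from separate animals, so the p-values measure the spread between these samples, which may be technical.

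Mitochondria keep a genome of their own, and its few messenger RNAs, which all encode core subunits of the respiratory chain and of ATP synthase, are translated by a dedicated ribosome inside the organelle. Its ribosomal RNAs come from mitochondrial DNA, whereas every protein of it is encoded in the nucleus, made in the cytosol and imported. Some of these proteins descend from bacterial ribosomal proteins and others are found only in mitochondria. In exocrine cells, which secrete large amounts of digestive enzymes, mitochondria supply the ATP for protein synthesis and secretion. Nuclear genes of this kind are known targets of the transcription factors GABP (an ETS-family factor, also called NRF2), NRF1 and YY1.

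RefSeq (GRCm38.p6) gave 75 promoter windows for 69 of the members, each the 250 bases upstream of a start, and none for the other 9. These motifs were searched on both strands by their letters: CCGGAAG for the ETS factors, AAGATGGCG for YY1 and, for NRF1, its palindromic consensus of 10 bases. The ETS letters were in 18 of the 75 windows (24%), against 8.98% of the windows of protein-coding genes and 6.91% of all 32851 windows. Among members that were lower in KCS the ETS letters were in 6 of 37 windows, among those that were higher in 1 of 4, and among those not called in 11 of 34. The NRF1 letters were in 3 of the 75 windows (4%), against 1.07% of the windows of protein-coding genes and 0.782% of all. The YY1 letters were in 2 (2.67%), against 0.72% and 0.606%. Both were in 0 of the 37 windows of members that were lower. A match of letters is a description and not a binding site. The windows of 5 members are shown, and each holds a match, set in capitals. They were taken from the 8 lower members with the smallest p-values and from the 4 called higher. Mrpl22, Mrpl58, Mrps18c and Mrps27, whose values by sample are also given below, hold the ETS letters too and are not shown. Of these only Mrpl58 was called. Mrpl17 (chr7:105811088-105811337, minus strand), Mrpl53 (chr6:83108858-83109107, plus strand) and Mrps26 (chr2:130563507-130563756, plus strand) were among the 8 members with the smallest p-values among those lower in KCS, and Mrpl3 (chr9:105053018-105053267, plus strand) and Mrps11 (chr7:78782881-78783130, plus strand) were higher in KCS. The match in Mrps11 is to YY1 and the others are to the ETS letters, so the ETS letters stand before genes of both directions. The window of Mrps11 partly overlaps that of Mrpl46 (chr7:78783090-78783339, minus strand). Mrpl46 was lower in KCS (-0.77, limma adjusted p = 0.00768), and the YY1 letters lie outside its window. Which of these genes the YY1 letters belong to was not tested.
Mrpl17: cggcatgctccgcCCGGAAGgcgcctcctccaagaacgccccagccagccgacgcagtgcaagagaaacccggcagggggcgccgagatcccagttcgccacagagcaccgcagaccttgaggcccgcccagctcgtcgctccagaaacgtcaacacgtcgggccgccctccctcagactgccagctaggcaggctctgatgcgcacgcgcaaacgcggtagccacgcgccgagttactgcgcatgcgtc
Mrpl53: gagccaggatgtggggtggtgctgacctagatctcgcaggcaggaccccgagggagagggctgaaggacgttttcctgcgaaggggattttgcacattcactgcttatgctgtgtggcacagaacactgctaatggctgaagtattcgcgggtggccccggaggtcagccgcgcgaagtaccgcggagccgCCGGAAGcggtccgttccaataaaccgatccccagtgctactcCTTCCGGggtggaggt
Mrps26: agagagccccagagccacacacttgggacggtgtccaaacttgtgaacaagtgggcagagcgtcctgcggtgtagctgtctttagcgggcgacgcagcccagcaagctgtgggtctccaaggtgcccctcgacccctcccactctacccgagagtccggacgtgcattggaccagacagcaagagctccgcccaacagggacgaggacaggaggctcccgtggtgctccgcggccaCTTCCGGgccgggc
Mrpl3: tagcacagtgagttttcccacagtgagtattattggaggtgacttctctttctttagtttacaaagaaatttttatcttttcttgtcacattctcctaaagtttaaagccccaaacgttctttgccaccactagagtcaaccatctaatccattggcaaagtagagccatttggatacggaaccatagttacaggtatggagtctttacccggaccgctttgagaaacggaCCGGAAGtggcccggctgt
Mrps11: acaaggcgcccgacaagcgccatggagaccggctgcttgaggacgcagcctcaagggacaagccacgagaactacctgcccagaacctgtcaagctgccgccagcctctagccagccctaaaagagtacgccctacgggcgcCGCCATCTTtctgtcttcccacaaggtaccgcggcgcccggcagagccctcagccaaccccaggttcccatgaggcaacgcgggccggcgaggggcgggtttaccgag

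The RNA of the 6 samples was hybridised to 6 one-colour arrays of 62976 spots. The groups stood apart in their overall signal. The KC arrays had 26550 to 27235 probes well above background and the KCS arrays 35365 to 35920, and the 100 brightest probes held 34.4% to 37.4% of the signal in KC and 13.4% to 14.6% in KCS. The values below are log2 signals minus the 75th percentile of each array. They are therefore relative to the rest of the array and not amounts per cell, and the number of arrays limits their precision. The labelled cell type was checked with 16 acinar marker genes. Their summed level was 15.02 to 15.24 on this log2 scale in KC, and 2.22, 4.22 and 11.08 in KCS replicates 1, 2 and 3, with all 16 markers lower in KCS. The library labelled KCS replicate 3 thus held far more acinar transcript than the other KCS libraries. For KCS replicates 1 and 2 these markers did not bear out the acinar label. The digestive enzyme gene Cpa1 gave 11.65, 11.43 and 11.61 in KC and -1.87, -0.61 and 7.53 in KCS. Macrophage markers went from 5.70 to 6.34 in KC to 8.11 to 8.56 in KCS (7 of 8 higher, with Fcgr1 not well above background in any KC sample), and fibroblast and stellate cell markers from 7.64 to 8.06 to 10.06 to 10.36 (8 of 8 higher). Ductal markers were at 5.79 to 6.24 in KC and 8.09 to 8.47 in KCS (4 of 8 higher, 1 lower), endothelial markers at 3.69 to 3.91 and 4.62 to 5.42 (6 of 7 higher), and islet markers at 9.85 to 10.07 and 7.17 to 7.97 (7 of 8 lower). T and B cell markers overlapped between the groups (2.97 to 4.12 in KC and 1.51 to 3.06 in KCS, 2 lower and 2 higher of 7 tested, the latter being Cd3g and Cd79b, which were not well above background in any KC sample), and so did erythroid markers (7.73 to 9.66 and 9.32 to 9.46, 1 of 4 higher). The part that these markers play in the values below was not tested, and in bulk RNA fewer cells of a type and less RNA per cell cannot be told apart. The targeted gene Setdb1 gave -0.91, -1.04 and -0.32 in KC and -0.28, -0.44 and -0.55 in KCS, a difference of 0.33 (SE 0.24, limma adjusted p = 0.270). Where its probe lies relative to the floxed part is not known here, so it checks nothing about the labels.

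Mitochondrial ribosomal protein genes were mostly lower in KCS, relative to the 75th percentile of each array. Of the 78 members, 42 were lower (53.8%), 4 were higher and 32 did not pass the test (limma, Benjamini-Hochberg adjusted p under 0.05). Among all 27102 rows tested 34.4% were lower and 25.9% higher, and among the 15153 protein-coding genes tested 27.9% were lower and 33.6% higher. The median log2 fold change over the members was -0.56, against 0.12 over protein-coding genes and -0.19 over all rows. The direction depends on the scale. With each array scaled to its spike-in controls, all 78 members were higher in KCS, as were 90.4% of the protein-coding genes. The members called lower differed by 1.36-fold to 3.47-fold and those called higher by 1.36-fold to 1.88-fold, with standard errors over all members between 0.15 and 0.40 on the log2 scale. The KC and KCS samples did not overlap in 54 members that were lower in KCS and in 8 that were higher, against 32.5% and 38.7% of the protein-coding genes and 38.4% and 29.8% of all rows.

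**Figure D1:**
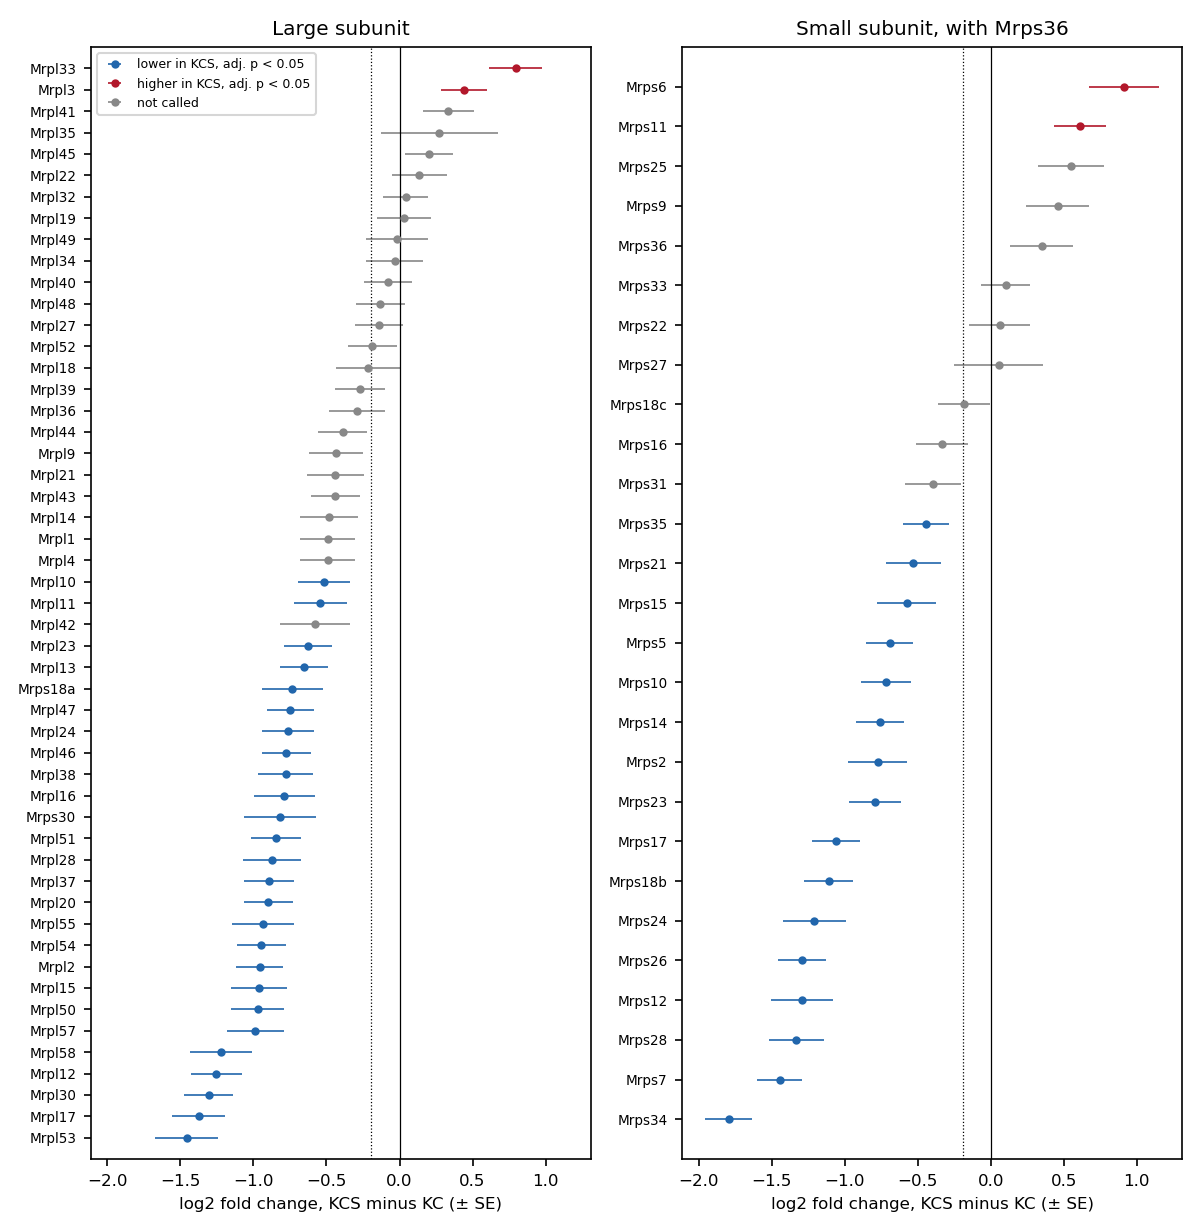
Log2 fold change (KCS minus KC, horizontal axis) of each of the 78 genes, with its standard error from limma, for the large subunit (left) and the small subunit with Mrps36 (right). Blue points are lower and red points higher at an adjusted p under 0.05, grey points are not called, and the dotted line is the median of all rows tested, -0.19. Most points lie to the left of 0, from -1.79 for Mrps34 to 0.91 for Mrps6, relative to the 75th percentile of each array. On the scale of the spike-in controls every gene is higher in KCS.

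The scale of the arrays and the background correction changed how many members were called and in which direction. The normexp setting also starts from another signal column, so what moved its counts was not tested. The median log2 fold change of all rows was -0.19 with the 75th percentile, -0.01 with quantile normalization, 0.16 with centring on the median of each array, 2.70 with the spike-in controls and -0.61 with the normexp background correction, and the share of higher calls over all rows was 42.9%, 49.9%, 56.5%, 96.8% and 31.1%. The members went from 42 lower and 4 higher to 39 and 4 with quantile normalization (25% and 36.3% of protein-coding genes), to 21 and 9 with median centring (20.3% and 43.1%) and to 19 and 18 with normexp (37.2% and 37.5%). With the spike-in controls they were at 0 lower and 78 higher (2.58% and 90.4%). The members' median minus the protein-coding median was -0.68 with the 75th percentile, and necessarily the same with the median or the spike-in controls, which shift every gene of an array alike. It was -0.70 with quantile normalization and -0.065 with normexp. There were 16 members called lower with the 75th percentile, quantile normalization, median centring, normexp and the deposited value table alike. They were Mrpl2, Mrpl12, Mrpl17, Mrpl30, Mrpl50, Mrpl53, Mrpl54, Mrpl58, Mrps7, Mrps12, Mrps17, Mrps18b, Mrps24, Mrps26, Mrps28 and Mrps34. The 4 members called higher, Mrpl3, Mrpl33, Mrps6 and Mrps11, were called higher with all of these. Of the members described below as lower, Mrpl10, Mrpl11, Mrpl23, Mrpl24, Mrps14, Mrps18a and Mrps30 were not called with median centring. The directions given below are on the 75th percentile scale.

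**Figure D2:**
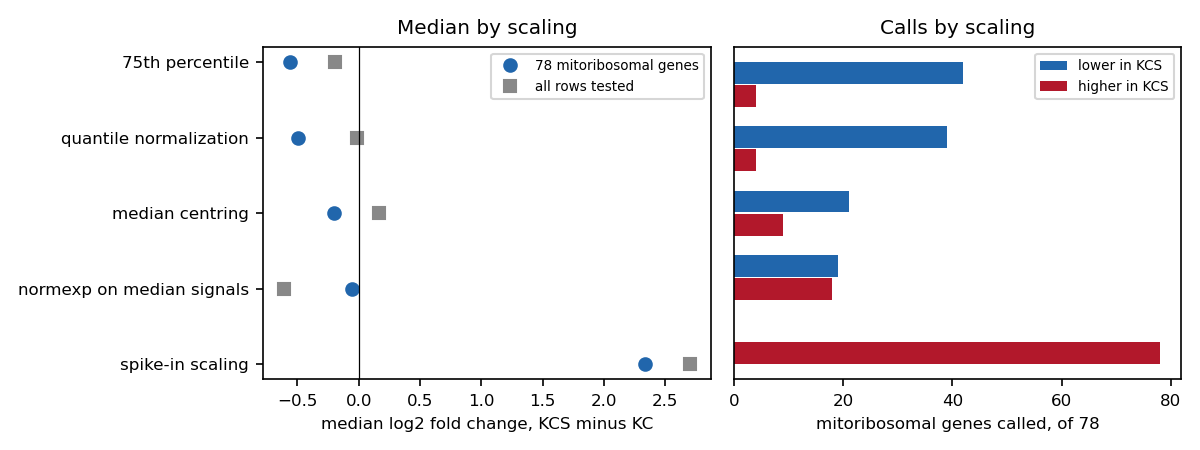
Left, the median log2 fold change (KCS minus KC) of the 78 mitoribosomal genes (blue circles) and of all rows tested (grey squares) under 4 ways of scaling the arrays and with normexp on median signals. Right, the number of mitoribosomal genes called lower (blue) or higher (red) in KCS under each. The blue circles lie to the left of the squares in all but the normexp setting, and both groups of genes lie above 0 with spike-in scaling, where all 78 are called higher.

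The small subunit decodes the messenger RNA. Of its 26 genes, 16 were lower in KCS and 2 were higher, with a median of -0.63 (range -1.79 to 0.91). Of the 16 with a bacterial counterpart, 11 were lower and 2 higher (median -0.70), and of the 10 specific to mitochondria, 5 were lower and none higher (median -0.42). Mrps34, a mitochondria-specific protein in which mutations cause Leigh syndrome in humans, had the largest difference. It gave 5.34, 5.48 and 5.27 in KC and 3.62, 3.49 and 3.60 in KCS. Every KCS value lay well below every KC value, by -1.79 on average (SE 0.16, limma adjusted p = 0.00028), a 3.47-fold difference. Mrps7, a protein of the head of the subunit, gave 5.03, 5.06 and 5.02 in KC and 3.59, 3.55 and 3.64 in KCS. The samples of each group were almost equal, with a difference of -1.44 between the groups ( SE 0.15, limma adjusted p = 0.000472). Mrps26, also specific to mitochondria, gave 4.73, 4.98 and 4.84 in KC and 3.61, 3.54 and 3.51 in KCS, and fell by 1.29 (SE 0.16, limma adjusted p = 0.000873). Mrps28 gave 4.35, 4.23 and 4.16 in KC and 2.72, 2.87 and 3.15 in KCS, with replicate 3 the highest of the KCS samples and still below all KC samples (-1.33, SE 0.19, limma adjusted p = 0.0013). Mrps12, a protein of the decoding centre whose bacterial counterpart is the site of streptomycin resistance, gave 4.60, 4.92 and 4.49 in KC and 3.39, 3.14 and 3.60 in KCS (-1.29, SE 0.21, limma adjusted p = 0.00234). With the spike-in controls these 5 genes were higher in KCS, by 1.10, 1.45, 1.60, 1.57 and 1.60 in the order given.

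The large subunit joins the amino acids and holds the tunnel through which the new protein leaves. Of its 51 genes, 26 were lower and 2 higher, with a median of -0.54 (range -1.46 to 0.79). The 29 with a bacterial counterpart gave 14 lower and 2 higher (median -0.49, and 0.017 with normexp), and the 21 specific to mitochondria 11 lower and none higher (median -0.73). Mrpl55 (-0.93, lower) was of unclear class and was counted in neither. Mrpl53, specific to mitochondria, gave 4.53, 4.89 and 4.47 in KC and 2.97, 3.11 and 3.45 in KCS (-1.46, SE 0.22, limma adjusted p = 0.00161). The spread within each group was among the wider ones here, and the groups stayed apart. Mrpl30 gave 4.34, 4.27 and 4.04 in KC and 2.93, 2.86 and 2.94 in KCS (-1.31, SE 0.17, limma adjusted p = 0.000935). Mrpl17, a protein near the exit of the tunnel, gave 3.60, 3.66 and 3.61 in KC and 2.21, 2.07 and 2.48 in KCS, with nearly equal KC samples and no overlap (-1.37, SE 0.18, limma adjusted p = 0.001). Mrpl12, the stalk protein that brings translation factors to the ribosome, gave 4.49, 4.66 and 4.49 in KC and 3.27, 3.14 and 3.45 in KCS (-1.26, SE 0.17, limma adjusted p = 0.00123). Mrpl58, also called ICT1, a peptidyl-tRNA hydrolase built into the subunit that can release stalled peptides, gave 4.80, 5.06 and 4.56 in KC and 3.44, 3.49 and 3.82 in KCS (-1.22, SE 0.21, limma adjusted p = 0.00307). None of these 5 overlapped between the groups. With the spike-in controls Mrpl53, Mrpl30, Mrpl17, Mrpl12 and Mrpl58 were higher in KCS by 1.44, 1.59, 1.52, 1.64 and 1.67.

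The 4 members that rose on this scale were counterparts of bacterial proteins. With median centring 9 were higher, among them the mitochondria-specific Mrpl41, Mrpl45 and Mrps25. Mrpl33, a small protein of the large subunit, gave 4.53, 4.79 and 4.51 in KC and 5.29, 5.36 and 5.57 in KCS. All KCS samples lay above all KC samples (0.79, SE 0.18, limma adjusted p = 0.00909). Mrps6, which pairs with a protein of the S18 family on the platform of the small subunit, gave 2.37, 1.56 and 1.98 in KC and 2.94, 2.92 and 2.79 in KCS. Its KC samples were spread more widely than KCS samples (0.91, SE 0.24, limma adjusted p = 0.0165, and 0.89 with adjusted p = 0.0556 without KCS replicate 2). Mrps11, another platform protein, gave 0.03, -0.01 and -0.25 in KC and 0.57, 0.66 and 0.38 in KCS (0.61, SE 0.18, limma adjusted p = 0.0244). Its call was lost without KC replicate 3 (adjusted p = 0.0697) and without KCS replicate 1 (0.0677) or 2 (0.0912). Mrpl3, which reaches close to the centre of peptide bond formation, gave 2.57, 2.49 and 2.63 in KC and 2.96, 3.06 and 2.98 in KCS (0.44, SE 0.16, limma adjusted p = 0.0482). It lay just inside the threshold and lost its call without any 1 of the 6 samples. In 4 further members the KCS samples lay above the KC samples without passing the test. Mrps25 differed by 0.55 (limma adjusted p = 0.0744), Mrps36 by 0.35 (0.202), Mrpl41 by 0.33 (0.143) and Mrpl45, which ties the ribosome to the inner membrane, by 0.20 (0.313). Mrps36 bears the family's name but belongs to the 2-oxoglutarate dehydrogenase complex of the citric acid cycle and is counted with neither subunit.

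**Figure D3:**
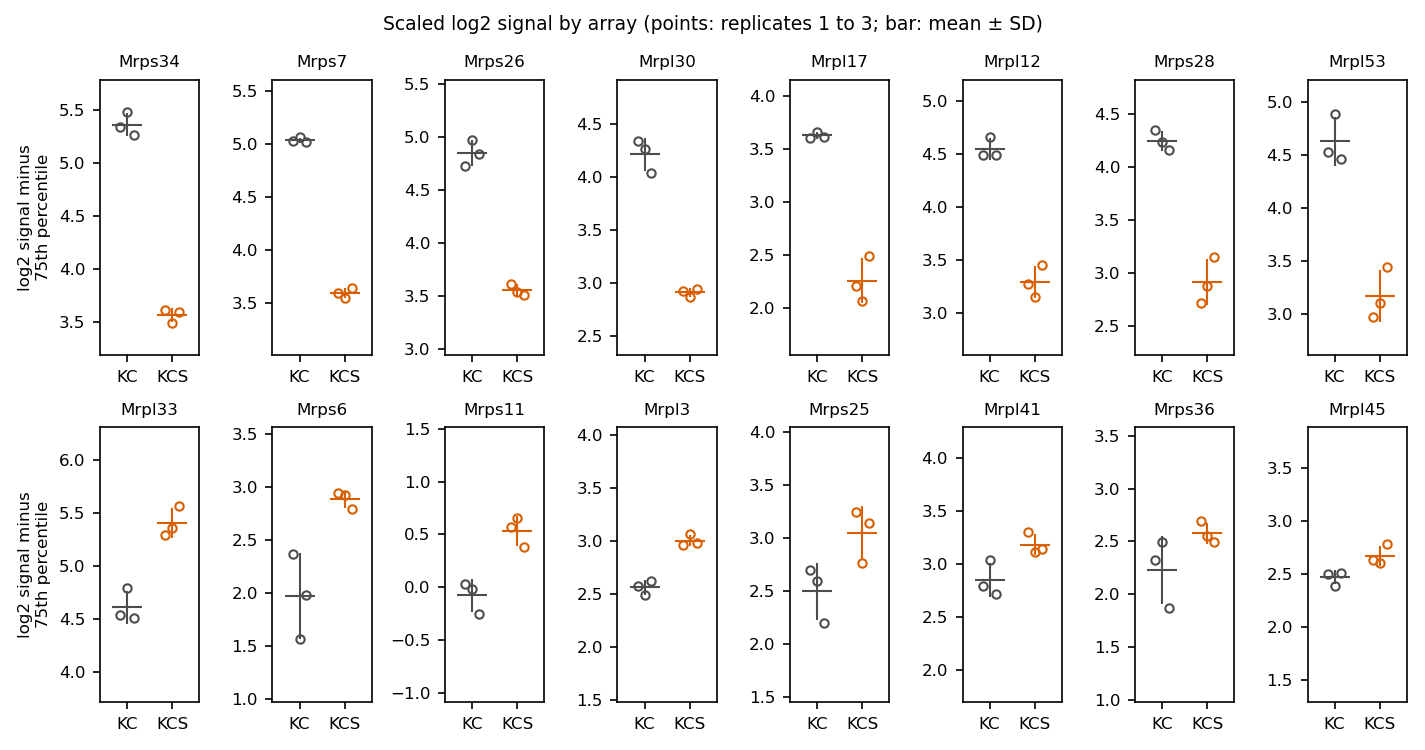
Scaled log2 signal (log2 signal minus the 75th percentile of the array, vertical axis) of each sample for the 8 members lower in KCS with the smallest p-values (top row) and the 8 members whose KCS samples all lay above the KC samples (bottom row), with the mean ± SD of 3 samples per group. KC and KCS do not overlap in any panel, from a difference of -1.79 in Mrps34 to 0.91 in Mrps6, and the last 4 panels of the bottom row did not pass the test. On the scale of the spike-in controls all 16 genes are higher in KCS.

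Neighbouring proteins of the ribosome did not move as blocks throughout. All 3 genes of the stalk and its base were lower. Mrpl10 differed by -0.52 (limma adjusted p = 0.0449) and Mrpl11 by -0.54 (adjusted p = 0.0377), both close to the threshold and lost in most settings that leave out 1 sample (Mrpl10 without any 1 but KC replicate 1, at adjusted p between 0.0561 and 0.136, and Mrpl11 without any 1 but KC replicate 3, at 0.0768 to 0.118), whereas Mrpl12 differed by -1.26. Of 8 genes at the tunnel exit and the membrane anchor, 4 were lower and none higher (median -0.51). There Mrpl24 differed by -0.76 (limma adjusted p = 0.00981) and Mrpl23 by -0.63 (0.0153, and 0.0643 without KCS replicate 2), whereas Mrpl22 gave 3.29, 3.75 and 3.47 in KC and 3.64, 3.56 and 3.70 in KCS, which overlapped (0.13, adjusted p = 0.558). In the central protuberance, which touches the small subunit, 3 of the 6 genes listed were lower (median -0.49). In the head of the small subunit 4 of the 5 listed were (median -0.76). These lists need not hold every protein of either place. With normexp the medians of the tunnel exit (0.051) and the central protuberance (0.033) lay above 0. Among the 5 head genes listed, the gene that was not lower was Mrps9. It differed by 0.46 (limma adjusted p = 0.109) at the probe that stands for it. The S18 family has 3 members in mammals, of which Mrps18a lies in the large subunit. The classes above follow the systematic names of the proteins, by which Mrps18a and Mrps18b were counted as specific to mitochondria. Mrps18b fell by 1.11 (limma adjusted p = 0.00175) and Mrps18a by 0.73 (0.0206), a call lost without replicate 1 or 2 of either group (adjusted p = 0.0515 to 0.0783). Mrps18c gave 3.48, 3.54 and 3.18 in KC and 3.22, 3.16 and 3.27 in KCS, which overlapped (-0.18, adjusted p = 0.399). Mrps30, a large subunit protein first described as a cell death protein, gave 3.16, 2.50 and 3.28 in KC and 2.14, 2.12 and 2.23 in KCS (-0.82, SE 0.25, limma adjusted p = 0.027). KC replicate 2 lay nearest to the KCS samples, and the call was kept only without that sample, at adjusted p = 0.0548 to 0.0799 without any 1 of the others.

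The 32 members that did not pass the test ranged from -0.58 to 0.55 in log2 fold change, 20 below 0 and 12 above, with adjusted p between 0.0587 and 0.947. In 16 of them the groups overlapped, in 12 every KCS sample lay below every KC sample and in 4 above. Mrps27, a small subunit protein of the pentatricopeptide repeat class that binds RNA, gave -0.02, -0.88 and -0.06 in KC and 0.08, -0.31 and -0.57 in KCS, a difference of 0.05 (SE 0.31, limma adjusted p = 0.888) that is small against the spread within either group. The spread of the samples within a group was otherwise narrow. The SD over the 3 samples had a median of 0.14 in KC and 0.12 in KCS over the members, against 0.31 and 0.27 over all rows tested, and was highest for Mrpl35 in both groups.

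Different probes of a gene mostly gave the same direction. Of the 23 members with more than 1 probe, all probes had the same sign in 20 and the same call in 16, and no member had probes called in opposite directions. Over all 104 probes, 51 were lower and 5 higher. The spread between probes of a gene was 0.30 on the log2 scale in the median and 0.86 at most, in Mrps14. Its brighter probe, well above background on all 6 arrays, differed by -0.76, and its other probe, well above background on 3 arrays, by 0.10, so that the mean of both no longer passed the test. The probes of Mrpl44, an RNase III-like protein, gave -0.39 and 0.34, and those of Mrpl27 gave -0.14, -0.23 and 0.02, none of them called. Both probes of Mrps7 were lower (-1.44 and -0.78), as were the 3 probes of Mrps18b (-1.11, -0.62 and -1.15). The other probe of Mrps9 was higher by 0.76 (limma adjusted p = 0.0127). On the reference, 25 members overlap another gene, 20 of them a protein-coding one, and which strand or exon each probe reads was not tested. Mrps6 shares its locus with the inositol transporter gene Slc5a3, which differed by 1.53 (limma adjusted p = 0.111). Mrps7 overlaps Gga3 (-0.10, adjusted p = 0.626) and Mif4gd (-0.20, 0.308), neither of which was called, and Mrpl53 overlaps Ccdc142, which fell by 0.95 (adjusted p = 0.0112).

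The members' values moved with the sample as well as with the group. Their median level was 3.50, 3.67 and 3.47 in KC replicates 1 to 3 and 2.97, 2.90 and 3.13 in KCS replicates 1 to 3, so no KCS sample reached a KC sample. KCS replicate 3, the KCS library with the most acinar transcript, was the highest of the KCS samples in 36 of the 42 members called lower (85.7%), against 46.6% of the 4233 protein-coding genes called lower. KC replicate 2 was the highest of the KC samples in 32 of those 42 members (76.2%, against 30.1%). Without KCS replicate 3 there were 37 members lower and 3 higher, with a median of -0.59. One slide held replicate 1 of both groups and the other slide held the remaining 4 samples. The median difference over the members was -0.57 on the first of these slides and -0.57 on the second, and 73 of the 78 members had the same sign on both. With the slide as a block the counts were 43 lower and 4 higher, and on the second slide alone 26 lower and 2 higher. Left out in turn, each sample gave between 32 lower (without KCS replicate 2) and 40 lower, and between 1 higher (without KCS replicate 2) and 3 higher, with 2 higher without KC replicate 3 or KCS replicate 1. In all 6 of these fits 32 members stayed lower and Mrpl33 stayed higher.

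Of 5 mitoribosomal protein genes with names outside the Mrpl and Mrps series, 4 were lower (median -0.83). Aurkaip1, a small subunit protein, gave 7.15, 7.22 and 6.91 in KC and 5.54, 5.51 and 5.52 in KCS (-1.57, SE 0.17, limma adjusted p = 0.00049). Gadd45gip1, at the tunnel exit of the large subunit, differed by -1.53 (0.00129), Chchd1 by -0.83 (0.011) and the pentatricopeptide repeat protein Ptcd3 by -0.77 (0.0091). Dap3, a GTP-binding protein of the small subunit, gave 4.05, 3.90 and 4.22 in KC and 4.23, 4.17 and 4.13 in KCS, which overlapped (0.12, adjusted p = 0.566). Of 27 genes for assembly of the mitoribosome and modification of its RNA, 14 were lower and none higher (median -0.53). Gtpbp10, a GTPase that acts late in large subunit assembly, gave 3.38, 2.63 and 2.38 in KC and -0.06, -0.01 and 0.13 in KCS (-2.78, SE 0.28, limma adjusted p = 0.000407). The pseudouridine synthase Rpusd3 differed by -1.54 (0.000538) and the GTPase Mtg1 by -1.50 (0.000742). Of 18 tested genes for factors that run translation on this ribosome, 6 were lower and 2 higher (median -0.20), a share of lower calls near that of protein-coding genes, and with median centring 3 were lower and 4 higher (median 0.15). Gatc, a subunit of the enzyme that makes glutaminyl-tRNA in mitochondria, differed by -0.91 (limma adjusted p = 0.00419), Gfm2, which recycles ribosomes, by -0.94 (0.00443), and Oxa1l, which inserts new proteins into the inner membrane, by -0.83 (0.00617, not called when its probes were averaged). Of 13 genes for upkeep and transcription of mitochondrial DNA, 3 were lower and 2 higher (median -0.30). The share of lower calls, 23.1%, was below that of protein-coding genes, 27.9%. With median centring 0 were lower and 3 higher (median 0.053). The transcription factor Tfb2m differed by -0.72 (limma adjusted p = 0.0124), the DNA polymerase Polg by -0.72 (0.0157, and 0.0636 without KCS replicate 2) and the RNA-degrading Pnpt1 by 0.73 (0.0137, and 0.0555 without KCS replicate 2). Tfam, which packages mitochondrial DNA, gave 1.02, 0.95 and 1.21 in KC and 1.09, 1.26 and 1.28 in KCS, which overlapped (0.15, adjusted p = 0.470). With median centring Chchd1, Ptcd3, Oxa1l, Tfb2m and Polg were not called. With the spike-in controls every gene named in this paragraph except Gtpbp10 was higher in KCS at an adjusted p under 0.05. Of the 27 genes for assembly and RNA modification, 25 were.

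Of 13 genes for regulators of mitochondrial biogenesis, 5 were lower and 2 higher (38.5% and 15.4%, median -0.22), against 27.9% and 33.6% of protein-coding genes. The 5 include Esrrb, for which no test is given below. With median centring 4 were lower and 4 higher (median 0.14). The coactivator Ppargc1a (PGC-1 alpha), which raises transcription of nuclear genes for mitochondria, gave 0.44, 1.40 and 0.51 in KC and -4.23, -4.03 and -2.34 in KCS. KCS replicate 3 was again the highest of its group, and the groups were far apart (-4.32, SE 0.55, limma adjusted p = 0.00089). It was lower with the spike-in controls too, by -1.42. The nuclear receptor gene Esrrb was not well above background on any KCS array and was at least 33-fold lower there, a bound that sets the KC mean against the dimmest probe still well above background on each KCS array. It passed the filter on dim probes through the KC group alone, so no test is given. The coactivator Pprc1 differed by -0.98 (limma adjusted p = 0.00282, not called when its probes were averaged) and Myc, a transcription factor with ribosomal and mitochondrial genes among its targets, by -1.16 (0.0138, and 0.0592 with median centring). Of the genes for subunits of GABP, 2 were higher. Gabpa gave 0.02, -0.21 and 0.09 in KC and 0.73, 0.58 and 0.57 in KCS (0.66, SE 0.17, limma adjusted p = 0.0156, and 0.0524 without KCS replicate 1). Gabpb1 gave 0.88, 0.61 and 0.56 in KC and 1.76, 1.81 and 1.76 in KCS (1.09, SE 0.17, limma adjusted p = 0.00202). Neither was called when the probes of each gene were averaged (0.28 and 0.37). The other subunit gene, Gabpb2, was named after its values were seen. It was not called (-0.38, limma adjusted p = 0.0910), but was lower when its probes were averaged (-0.54, adjusted p = 0.0264). Nrf1 gave 0.95, 0.11 and 0.87 in KC and 0.74, 0.80 and 0.48 in KCS, with full overlap (0.03, adjusted p = 0.930). Trp53, given here because the tumour suppressor it encodes is linked to stress of ribosomes and mitochondria, rose by 1.67 (SE 0.22, limma adjusted p = 0.000996). With the spike-in controls Pprc1 and Myc were higher in KCS, by 1.92 and 1.73.

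**Figure D4:**
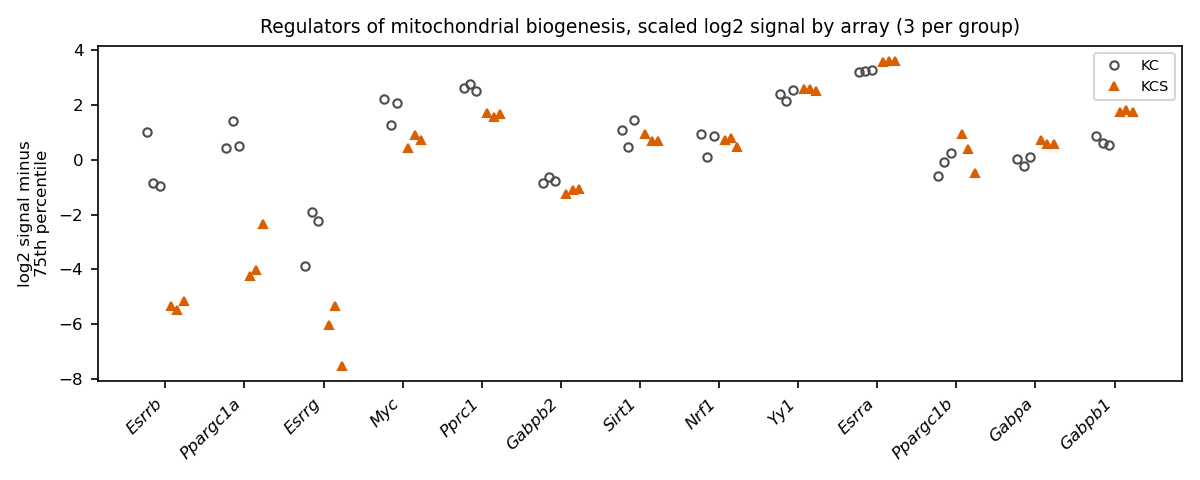
Scaled log2 signal (log2 signal minus the 75th percentile of the array, vertical axis) of 13 regulators of mitochondrial biogenesis, with 3 KC samples (grey circles) and 3 KCS samples (orange triangles) per gene. Ppargc1a lies between 0.44 and 1.40 in KC and between -4.23 and -2.34 in KCS, Esrrb is not above background on the KCS arrays, and Nrf1 overlaps between the groups. Levels of different genes come from different probes and cannot be compared. On the scale of the spike-in controls Ppargc1a and Esrrb stay lower in KCS.

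Genes for mitochondrial chaperones and proteases, import and the respiratory chain were mostly lower as well on this scale (57.1%, 57.9% and 68.8% called lower). Among protein-coding genes 27.9% were lower and among all rows 34.4%. Of 14 genes for chaperones and proteases of the organelle, 8 were lower and 1 higher (median -0.72), among them the protease genes Htra2 (-1.85, limma adjusted p = 0.000392), Clpx (-1.86, 0.000395) and Clpp (-1.51, 0.000512). Of 19 genes for protein import through the outer and inner membranes, 11 were lower and 2 higher (median -0.55), among them Timm17b, part of the inner membrane channel (-1.88, limma adjusted p = 0.000341), and the small chaperones Timm8a1 (-1.41, 0.00139) and Timm9 (-1.24, 0.00183). The import genes gave 3 lower and 5 higher with median centring and 3 lower and 7 higher with normexp (median 0.093). With the spike-in controls the 6 genes named here were higher in KCS. The respiratory chain and ATP synthase, whose mitochondrial subunits this ribosome makes, have 80 nuclear subunit genes on the list used, of which 77 were tested, 53 were lower and none was higher (median -0.74). Complex I gave 28 lower of 36 (median -0.88), succinate dehydrogenase, the complex with no subunit made in mitochondria, 1 of 4 (-0.21), the cytochrome bc1 complex 8 of 9 (-0.90), cytochrome c oxidase 4 of 11 (-0.17) and ATP synthase 12 of 17 (-0.68). The shares of lower calls in succinate dehydrogenase (25%) and cytochrome c oxidase (36.4%) were near those of protein-coding genes and of all rows. Genes were assigned to complexes by name, so Ndufa4 (-0.71, lower) was counted in complex I. The oxidase list lacks Cox4i1. Its 3 genes above 0 were the isoform genes Cox6a2 (0.45), Cox6b2 (0.42) and Cox7a1 (0.41), none of them called. The share of lower calls without these isoforms was not tested. The counts of the complexes and of the whole list too depended on the processing. The whole list gave 32 lower and 5 higher with quantile normalization and 19 and 15 with normexp. With quantile normalization cytochrome c oxidase was at 3 lower and 3 higher (median 0.41) and ATP synthase at 1 and 1 (median -0.011). Succinate dehydrogenase (0.15) and cytochrome c oxidase (0.18) had medians above 0 with median centring. Cytosolic ribosomal protein genes showed the widest shift. Their list was drawn by name and includes like-named genes such as Rpl22l1 and Rpl39l. Among the 81 tested, 1 passed the filter on dim probes through 1 group only. Of the 81, 80 were lower and 1, Rpl39l, was higher (1.11), with a median of -1.43 beside the -0.56 of the mitochondrial ones. That median was near 0 with quantile normalization (-0.0058, 8 lower and 19 higher), where the mitoribosomal median was -0.50 with 39 lower, so the order of both families depends on the scale. With the spike-in controls, 79 of the cytosolic genes and all 77 of the respiratory chain genes were higher in KCS.

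**Figure D5:**
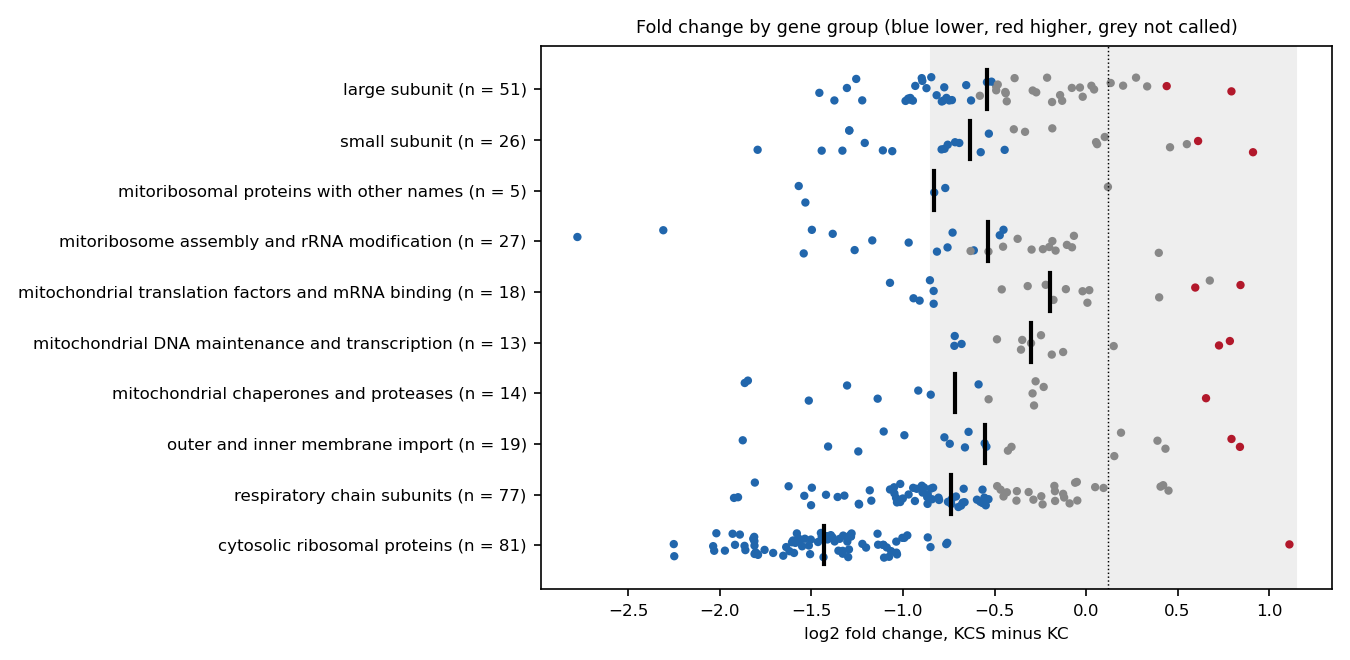
Log2 fold change (KCS minus KC, horizontal axis) of each tested gene in the subunits of the mitoribosome and in 8 related groups, with blue for lower, red for higher and grey for not called at a limma adjusted p under 0.05. Black bars mark group medians and the dotted line marks the median of protein-coding genes (0.12). The grey band runs from their lower to their upper quartile, -0.85 to 1.15. Group medians run from -1.43 for cytosolic ribosomal proteins to -0.20 for translation factors, all left of the dotted line on the 75th percentile scale. With quantile normalization the median of the cytosolic group is -0.0058, and with the spike-in controls all these medians are above 0. The medians of the translation factors (0.15) and of the DNA maintenance genes (0.053) are above 0 with median centring, and that of the import genes (0.093) with normexp.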

How the data were processed

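The deposited scanner files hold spot intensities, which per the file headers are processed signals, already corrected for background, from Agilent Feature Extraction 12.0.3.1. The log2 signal was scaled by subtracting, on each array, the 75th percentile over its non-control probes. The value table deposited by the authors holds log2 values on this scale, centred per probe, and served as an alternative. Control spots and spots marked as outliers (88 to 140 per array) were left out and spots of a probe averaged. A probe was tested if at least 3 of the 6 arrays had it well above background. Accessions were matched to RefSeq (GRCm38.p6), which named 33767 of 56605 probes, and the probe with the highest mean stood for a gene. KCS was compared with KC in limma 3.58.1 (lmFit and eBayes, two-sided, R 4.3.3) over all rows, adjusted by Benjamini-Hochberg at a threshold of 0.05, and the fit was tested on simulated data. Marker levels are log2 of summed signals. The spike-in scale is the median log2 signal of the E1A control spots. Members and gene lists were chosen with earlier results of these data known. Values by sample were given for the 8 members with the smallest p among those lower and the 8 among those higher whose groups did not overlap. Members whose probes differed in sign were given by log2 fold change. Others were named for their place in the ribosome, some with values by sample and some by log2 fold change alone. These others were chosen after their values were seen. From each mitochondrial list up to 4 genes with the smallest p were named, besides Trp53, Setdb1, Cpa1, Myc, Ppargc1a, Nrf1, Gabpa and Tfam. The release factor gene Mtrfr was not matched. The files name another genome build than RefSeq's, so probe coordinates are not given. Both groups also share 1 further allele, which is not reported here.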

Additional observations from a re-analysis of the deposited data

How the results depend on the processing

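The medians of all members and of both subunits stayed below 0 under every alternative except spike-in scaling, but with normexp the large subunit had 10 lower and 11 higher. Over all rows 16345 were called, and 31885 with no filter on dim probes. With spike-in scaling the median was 2.34 for all members, 2.35 for the large and 2.26 for the small subunit, with 0 lower and 78 higher. With median centring these were -0.20, -0.19 and -0.28, with 21 lower and 9 higher, and with normexp -0.055, -0.041 and -0.082, with 19 lower and 18 higher. The mean of a gene's probes gave a small subunit median of -0.46, and the second slide alone 26 lower and 2 higher. Leaving out each replicate gave 13400 to 15283 calls, 32 to 40 lower, 1 to 3 higher, and medians of -0.66 to -0.50 (all), -0.64 to -0.48 (large) and -0.71 to -0.57 (small). Log2 fold changes that turned with spike-in scaling were Aurkaip1 1.33, Chchd1 2.07, Clpp 1.38, Clpx 1.03, Gabpb2 2.52, Gadd45gip1 1.36, Gatc 1.99, Gfm2 1.95, Gtpbp10 0.12, Htra2 1.05, Mrpl10 2.38, Mrpl11 2.35, Mrpl12 1.64, Mrpl17 1.52, Mrpl23 2.27, Mrpl24 2.13, Mrpl27 2.75, Mrpl30 1.59, Mrpl44 2.51, Mrpl53 1.44, Mrpl58 1.67, Mrps12 1.60, Mrps14 2.14, Mrps18a 2.16, Mrps18b 1.79, Mrps18c 2.71, Mrps26 1.60, Mrps28 1.57, Mrps30 2.08, Mrps34 1.10, Mrps7 1.45, Mtg1 1.40, Myc 1.73, Oxa1l 2.06, Polg 2.18, Pprc1 1.92, Ptcd3 2.13, Rpusd3 1.35, Tfb2m 2.18, Timm17b 1.02, Timm8a1 1.49 and Timm9 1.65. With normexp Mrpl11 (0.094), Mrpl23 (0.017), Mrpl27 (0.49) and Mrps18c (0.43) turned. The cause of these differences was not tested. Normexp on mean signals was not run, since the files used here hold median signals, and normexp on median signals and the reading of each probe on its own were added after seeing the data.

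Whether the replicate numbers shared by both groups pair the samples is not known. Deviations from the group means correlated at 0.33, 0.04 and 0.14 between same-numbered samples, and at -0.27 to 0.18 between the others. With 3 samples per group such correlations cannot decide on a pairing. With the replicate number as a block, 37 members were lower and 3 higher, with unchanged medians, and 16452 rows were called. Not every sample correlated best with its own number.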
